A study of Homo sapiens with 8 samples.

Results

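NF-kappaB is a family of transcription factors that control survival, inflammation and cytokine genes. Expression of 10 of its genes was examined in 2 human lymphoma cell lines: the subunits NFKB1, NFKB2, REL, RELA and RELB, the inhibitors NFKBIA and NFKBIE, the feedback inhibitor TNFAIP3, the cofactor BCL3 and the adaptor TRAF1. All 10 were found among the 17958 genes that had a probe set paired with exactly 1 symbol, and each of them had 1 such probe set. KMH2 is a line from Hodgkin lymphoma and Ramos a line from Burkitt lymphoma. Cells of both lines grew in RPMI medium with fetal bovine serum. The 8 arrays held 3 KMH2 controls, 3 samples of KMH2 after 24 h of glucosamine, an amino sugar, and 2 Ramos samples. No dose is stated in the labels. Sample titles call both Ramos arrays control, whereas the design text has 1 of them follow glucosamine, so Ramos was treated as a cell line and neither array was assigned a treatment. The KMH2 samples are described as biological replicates. For Ramos nothing says so, and its arrays may differ by technical spread alone. The p-values of its comparisons rest on a spread shared with the KMH2 arrays.

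In resting cells NF-kappaB dimers are held in the cytoplasm by IkappaB proteins such as those encoded by NFKBIA and NFKBIE. In the canonical pathway the IkappaB kinase complex marks IkappaB for destruction and frees dimers of RELA or REL with the p50 product of NFKB1. In the alternative pathway the p100 precursor made from NFKB2 is processed to p52, which acts with RELB. Several members, NFKBIA and TNFAIP3 among them, are themselves targets of NF-kappaB and form negative feedback loops. In Hodgkin tumour cells the pathway is known to be constitutively active, and damage to NFKBIA and TNFAIP3 is known in this cancer and has been described in the KMH2 line. A probe set signal does not show whether the transcript encodes an intact protein.

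Because the members include known targets of their own pathway, their promoter sequences were searched for the kappaB consensus, the site bound by NF-kappaB dimers. The consensus was written as GGG, a purine, any base, A or T, a pair of pyrimidines and CC, on both strands. RefSeq promoter windows of GRCh38.p14, each 300 bases with 250 before and 50 after a transcript start, were matched by symbol for 8 members. RELB and NFKBIE were not matched. A match was present in 6 of these 8 genes (75%) and in 7 of their 14 windows. A match was held by 5.91% of all 35116 windows in the table, and by 7.09% of the 27305 genes with a window. The windows with matches belonged to NFKB1, NFKB2, REL, NFKBIA, TNFAIP3 and BCL3, and those of RELA and TRAF1 held none. A match describes these letters and is not evidence of binding in these cells.

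The upstream parts of 1 window each of NFKB1, REL and NFKBIA are shown in full, since in each a single stretch of matching letters lies within 100 bases of the start. Capitals mark the match, and all sequences run 5′ to 3′ on the gene's strand. The NFKB1 sequence is chr4:102501109-102501358, plus strand, that of REL is chr2:60881324-60881573, plus strand, and that of NFKBIA is chr14:35404750-35404999, minus strand.
NFKB1: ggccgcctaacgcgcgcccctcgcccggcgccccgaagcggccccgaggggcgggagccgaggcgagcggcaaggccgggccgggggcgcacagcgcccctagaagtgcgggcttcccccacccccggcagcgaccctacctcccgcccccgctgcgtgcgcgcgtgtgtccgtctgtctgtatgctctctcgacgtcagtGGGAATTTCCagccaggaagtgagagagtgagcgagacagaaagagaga
REL: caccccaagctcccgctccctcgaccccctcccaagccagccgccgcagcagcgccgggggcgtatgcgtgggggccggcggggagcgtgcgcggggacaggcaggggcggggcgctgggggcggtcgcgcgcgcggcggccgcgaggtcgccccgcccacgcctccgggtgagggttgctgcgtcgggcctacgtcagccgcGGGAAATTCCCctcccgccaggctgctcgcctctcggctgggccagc
NFKBIA: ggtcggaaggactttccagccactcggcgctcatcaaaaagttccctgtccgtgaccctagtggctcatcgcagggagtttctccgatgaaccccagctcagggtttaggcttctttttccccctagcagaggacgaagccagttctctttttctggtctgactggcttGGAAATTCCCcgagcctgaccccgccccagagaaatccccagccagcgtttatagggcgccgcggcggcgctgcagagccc

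In NFKB1, 1 of whose 2 windows held a match, it covered bases -49 to -40 from the start and read on the gene's strand. In REL the letters at -47 to -37 matched on both strands, so that overlapping matches made 1 stretch of 11 bases. In NFKBIA the match at -81 to -72 read on the opposite strand.

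NFKB2, TNFAIP3 and BCL3 are shown as stretches of 30 bases around each match, because NFKB2 and TNFAIP3 have several matches and that of BCL3 lies after the start. NFKB2 had 3 windows, 2 of which held 2 matching stretches each. In order these lie at chr10:102394462-102394491, plus strand, chr10:102394490-102394519, plus strand, chr10:102395519-102395548, plus strand, and chr10:102395674-102395703, plus strand. The TNFAIP3 stretch is chr6:137867188-137867217, plus strand, and that of BCL3 is chr19:44748700-44748729, plus strand.
NFKB2 stretch 1: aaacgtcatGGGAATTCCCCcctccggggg
NFKB2 stretch 2: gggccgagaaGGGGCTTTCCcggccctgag
NFKB2 stretch 3: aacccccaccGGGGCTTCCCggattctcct
NFKB2 stretch 4: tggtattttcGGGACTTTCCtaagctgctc
TNFAIP3: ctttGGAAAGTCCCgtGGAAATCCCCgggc
BCL3: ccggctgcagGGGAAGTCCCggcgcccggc

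TNFAIP3 held a pair of matches on the opposite strand, at -67 to -58 and at -55 to -46, and BCL3 held 1 at 3 to 12 bases into the transcript. In genes of the target list described below, 12 of 29 with a window held a match (41.4%), against 3 of 25 in the list of upstream signalling genes (12%). Genes with several windows had more sequence in which to match. The targets were listed because they are described as NF-kappaB targets, and several members are known targets too. A share above that of other genes could follow from this choice, so the shares are no independent test.

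**Figure D1:**
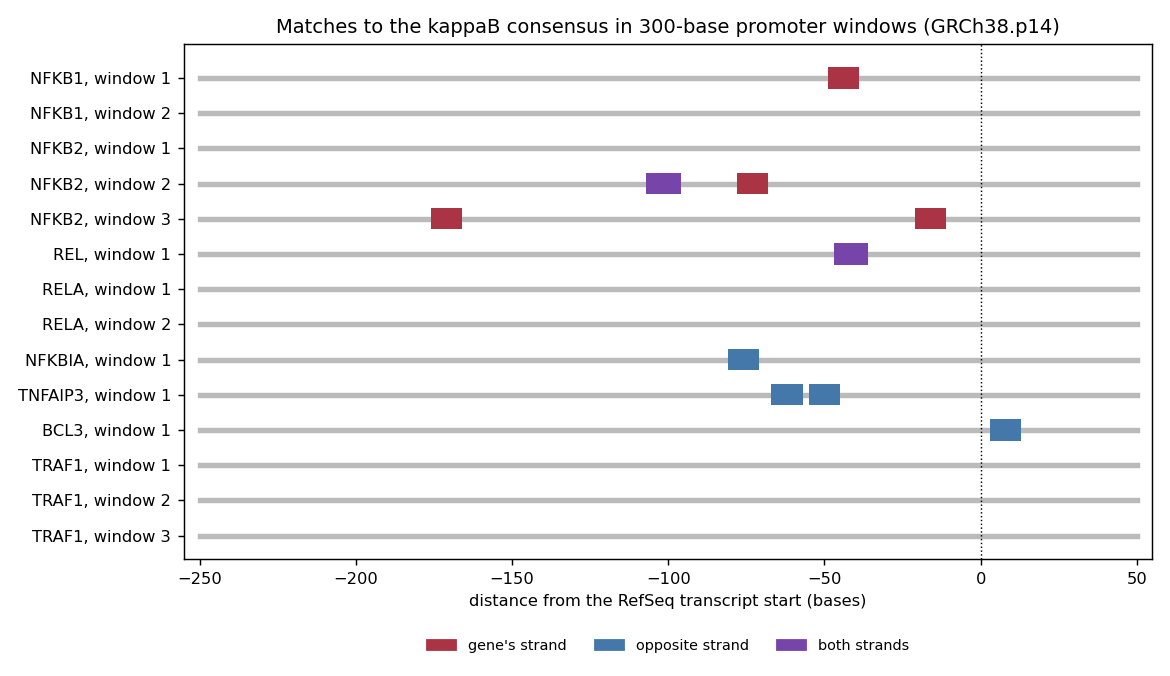
Positions of matches to the kappaB consensus in the 14 promoter windows of 8 members, as distance from the RefSeq transcript start in bases. Grey lines are the windows of 300 bases and coloured blocks the matches, by strand. At least 1 window of each of NFKB1, NFKB2, REL, NFKBIA and TNFAIP3 holds a match before the start, BCL3 holds 1 after it, and RELA and TRAF1 hold none.

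Signals were deposited as log2 values, and array medians lay between 5.62 and 5.68. Markers fitted the labels in most respects. The mean of 11 B-cell genes ran from 10.01 to 10.22 on the Ramos arrays, from 6.25 to 6.45 on KMH2 control and from 6.22 to 6.36 after glucosamine. Of 12 Hodgkin genes 10 were lower and 1 higher in Ramos than in KMH2 control (91.7% called, against 43.8% of all probe sets). After glucosamine 6 of those 12 fell and 1 rose (58.3% called, against 25.8% of all probe sets). Lists of other cell types had lower means than the B-cell genes. T and NK genes ran from 5.90 to 5.93 in KMH2 control and from 5.85 to 5.91 after glucosamine, both above the array medians. In Ramos they ran from 5.13 to 5.15. In the same order of groups, monocyte and granulocyte genes ran from 5.23 to 5.31, 5.11 to 5.22 and 5.28 to 5.36. Fibroblast, endothelial and epithelial genes ran from 4.85 to 4.99, 4.78 to 4.92 and 4.96 to 4.98. Among the T-cell genes CD4 (9.67), CD3D (8.19) and CD3G (7.92) were bright in KMH2 control, where CD3E was 4.17 and CD2 4.65. CD4 was 4.81 in Ramos. The monocyte gene CD14 went from 7.37 in KMH2 control to 6.29 after glucosamine (adjusted p = 0.00102). These 6 genes were chosen after their values were seen. The part of these markers in the results below was not tested. Values come from bulk RNA, in which fewer cells with a transcript and less of it per cell cannot be told apart.

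After 24 h of glucosamine the KMH2 cells had more REL and NFKB2 transcript and less TNFAIP3 and TRAF1 transcript. REL, the lymphoid c-Rel subunit, rose 1.29-fold, and TNFAIP3, which encodes the ubiquitin-editing inhibitor A20, fell 1.28-fold. NFKB2 rose 1.15-fold and TRAF1 fell 1.15-fold, but the call was lost in 5 of 6 fits without 1 array for NFKB2 and in 4 of 6 for TRAF1. The other 6 members did not pass the test. At an adjusted p of 0.05 over 19181 probe sets, 4 of 10 members were called, 2 in each direction, against 25.8% of all probe sets (11.9% higher and 13.9% lower). The count was 2 without control replicate 1, control replicate 2, glucosamine replicate 2 or glucosamine replicate 3. None of the members changed by 2-fold, and only 0.829% of all probe sets were called with at least that size. Their median difference was -0.055 on the log2 scale, against 0.013 over all probe sets tested. The glucosamine and control arrays did not overlap for 6 members, as for 40.9% of all probe sets.

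Ramos differed from KMH2 control in 8 of the 10 members, against 43.8% of all probe sets. Lower in Ramos were 7 (background 21.2%), namely NFKB1, NFKB2, REL, RELB, NFKBIA, BCL3 and TRAF1, and higher was 1, TNFAIP3 (background 22.7%). RELA and NFKBIE did not pass. The difference reached 2-fold in 6 members, against 14.9% of all probe sets called with at least that size. The median difference of the members was -1.06, against 0.063 over all probe sets. In KMH2 control the members were brighter than 66.8% (TNFAIP3) to 97.2% (NFKBIA) of probe sets. The backgrounds given cover all probe sets tested, bright and dim, and were not matched to the brightness of the members. Ramos and control arrays did not overlap for the 8 called members, as for 64.1% of all probe sets. This comparison shares the KMH2 control arrays with that of glucosamine, so the values of both are set side by side below.

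**Figure D2:**
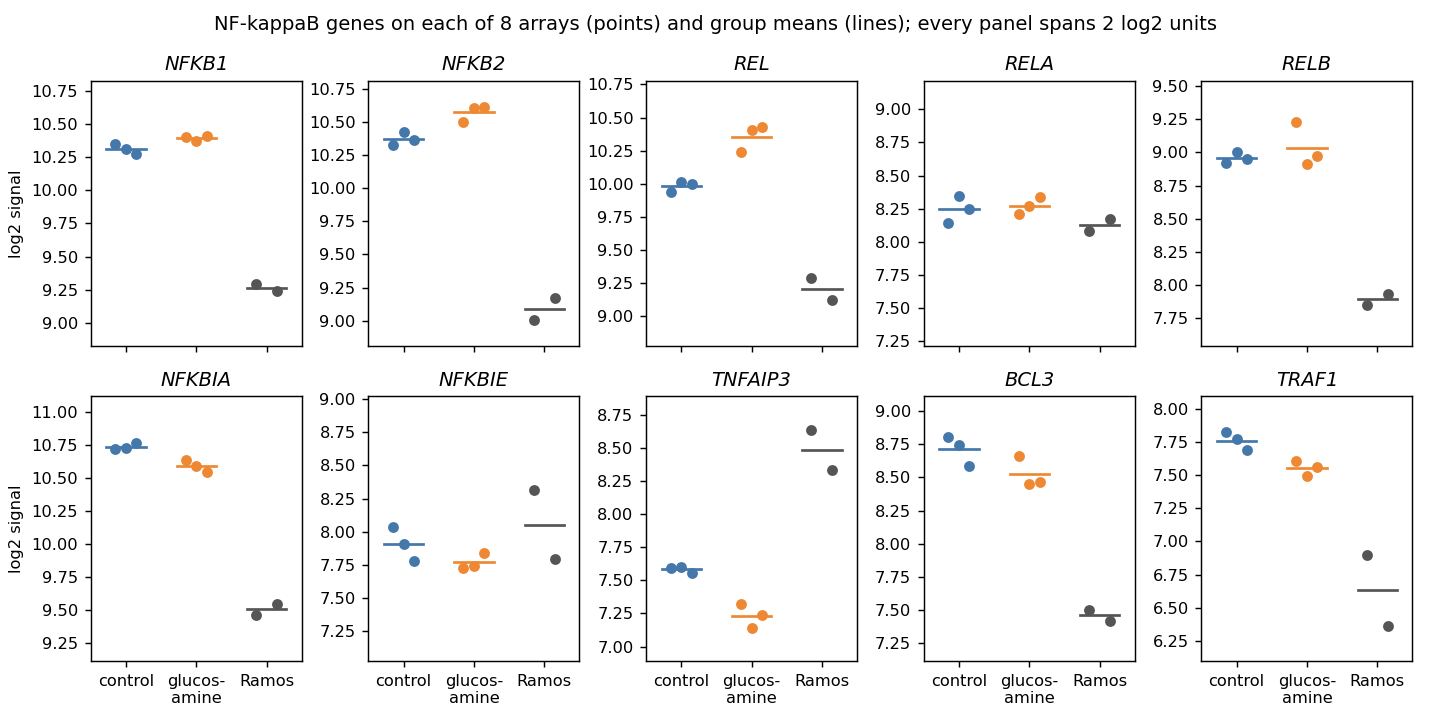
Log2 signal (y axis) of the 10 members on every array, with KMH2 control in blue, KMH2 glucosamine in orange and Ramos in grey. Points are arrays and lines are group means, and each panel spans 2 log2 units at its own level. In 7 panels the Ramos points lie below all KMH2 points with a wide gap, for TNFAIP3 they are the highest, and REL and TNFAIP3 show the clearest separation between control and glucosamine.

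REL read 9.94, 10.01 and 10.00 on the KMH2 control arrays, 10.24, 10.41 and 10.43 after glucosamine, and 9.29 and 9.12 in Ramos. The 3 groups did not overlap, with glucosamine highest and Ramos lowest. The rise after glucosamine was 0.37 ± 0.07 on the log2 scale (SE, n = 3 per group, adjusted p = 0.00394), and it was larger in size than the differences of 86.8% of probe sets. By replicate number the rise was 0.30, 0.40 and 0.42. Ramos was 0.78 ± 0.08 below KMH2 control (SE, adjusted p = 0.000117) and 1.15 below KMH2 glucosamine (adjusted p = 1.05e-05).

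NFKB2 encodes p100, the precursor of p52. It read 10.32, 10.43 and 10.37 in KMH2 control, 10.50, 10.60 and 10.61 after glucosamine, and 9.003 and 9.17 in Ramos. Every glucosamine array lay above every control array, by a narrow gap, and both Ramos arrays lay far below. Glucosamine minus control was 0.20 ± 0.06 (SE, adjusted p = 0.0351). The call did not survive leaving out any 1 of KMH2 control replicate 1, 2 or 3 or glucosamine replicate 2 or 3 (adjusted p from 0.0573 to 0.120), nor median centring (0.0532). Ramos was 1.28 ± 0.08 lower than control (SE, adjusted p = 3.35e-06), a 2.43-fold difference.

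NFKB1, the gene of p105 and p50, read 10.35, 10.31 and 10.28 in control, 10.41, 10.37 and 10.41 after glucosamine, and 9.29 and 9.24 in Ramos. The KMH2 groups were separated by a small step, with no overlap. Its difference of 0.08 did not pass the test (95% confidence interval from -0.033 to 0.20, adjusted p = 0.287). Ramos lay 1.05 ± 0.06 below control (SE, adjusted p = 2.56e-06), a 2.07-fold difference.

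RELB, the partner of p52, read 8.92, 9.01 and 8.95 in control, 9.23, 8.91 and 8.97 after glucosamine, and 7.85 and 7.93 in Ramos. The first glucosamine array stood above all others, while the other two lay within or below the range of the controls. The difference of 0.08 did not pass the test (interval from -0.12 to 0.27, adjusted p = 0.572), and it was -0.017 without glucosamine replicate 1. Ramos was 1.07 ± 0.10 lower than control (SE, adjusted p = 4.32e-05), a 2.09-fold difference.

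RELA, the p65 subunit of the canonical pathway, was the subunit whose signals overlapped between Ramos and KMH2 control. It read 8.14, 8.35 and 8.25 in control, 8.21, 8.27 and 8.34 after glucosamine, and 8.08 and 8.17 in Ramos. Glucosamine minus control was 0.028 (interval from -0.13 to 0.19, adjusted p = 0.826). Ramos minus control was -0.12 (interval from -0.31 to 0.070, adjusted p = 0.281), and Ramos minus glucosamine was -0.15 (adjusted p = 0.193). Both Ramos arrays lay just below the 3 glucosamine arrays. A 2-fold difference lies outside both of the intervals given, whereas the other 4 subunits differed from Ramos by 1.71-fold (REL) to 2.43-fold (NFKB2).

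NFKBIA encodes IkappaB-alpha, which retains the dimers in the cytoplasm. It read 10.72, 10.73 and 10.76 in KMH2 control, 10.63, 10.59 and 10.55 after glucosamine, and 9.47 and 9.55 in Ramos. All glucosamine arrays lay slightly below all controls, but the difference of -0.14 did not pass (interval from -0.26 to -0.027, adjusted p = 0.0749). It passed with array weights (0.0171), with a trend in the variance (0.0216) and without dim probe sets (0.0452). Ramos was 1.23 ± 0.06 lower than control (SE, adjusted p = 1.20e-06), a 2.34-fold difference.

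NFKBIE encodes IkappaB-epsilon, another inhibitor of the family. It read 8.04, 7.91 and 7.78 in control, 7.73, 7.74 and 7.84 after glucosamine, and 8.32 and 7.79 in Ramos. The Ramos arrays lay 0.53 apart, a wider gap than in 86.5% of probe sets, and the KMH2 groups overlapped. Neither glucosamine minus control (-0.14, interval from -0.31 to 0.034, adjusted p = 0.233) nor Ramos minus control (0.15, interval from -0.19 to 0.49, adjusted p = 0.460) passed. With Ramos replicate 1 alone it was 0.41 above control (adjusted p = 0.0125), and with replicate 2 alone -0.12 (adjusted p = 0.411). In these fits the spread comes from the KMH2 arrays, and the lone Ramos array is assumed to vary like them. Glucosamine minus control was -0.073 without control replicate 1.

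TNFAIP3 was the one called member that was higher in Ramos. It read 7.59, 7.60 and 7.56 in KMH2 control, 7.32, 7.14 and 7.24 after glucosamine, and 8.63 and 8.34 in Ramos. The 3 groups did not overlap, with Ramos highest and glucosamine lowest. It fell by 0.35 ± 0.06 after glucosamine (SE, adjusted p = 0.00357), in replicates 1, 2 and 3 by 0.27, 0.46 and 0.32 (-0.27, -0.46 and -0.32). Ramos was 0.90 ± 0.10 above control (SE, adjusted p = 0.000112), a 1.87-fold difference, and 1.25 above glucosamine (adjusted p = 1.50e-05).

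BCL3, an atypical IkappaB protein that acts in the nucleus with p50 or p52 dimers, read 8.80, 8.75 and 8.59 in control, 8.66, 8.45 and 8.47 after glucosamine, and 7.50 and 7.42 in Ramos. One glucosamine array lay within the range of the controls. The difference of -0.19 did not pass (interval from -0.37 to -0.0010, adjusted p = 0.136), but it did without glucosamine replicate 1 (-0.25, adjusted p = 0.0382) and with array weights (0.0249). Ramos was 1.25 ± 0.09 lower than control (SE, adjusted p = 1.18e-05), a 2.39-fold difference.

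TRAF1 is an adaptor of TNF receptors such as CD30 and a known NF-kappaB target. It read 7.82, 7.77 and 7.69 in KMH2 control, 7.61, 7.49 and 7.56 after glucosamine, and 6.90 and 6.36 in Ramos. Glucosamine arrays all lay below the controls, and the Ramos arrays lay below both groups but 0.53 apart. The fall was 0.21 ± 0.06 (SE, adjusted p = 0.0365). The call was lost without KMH2 control replicate 1 or 2 or glucosamine replicate 2 or 3 (adjusted p from 0.0954 to 0.113) and with quantile normalization (0.0947). Ramos was 1.13 ± 0.14 lower than control (SE, adjusted p = 0.000244), a 2.19-fold difference.

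**Figure D3:**
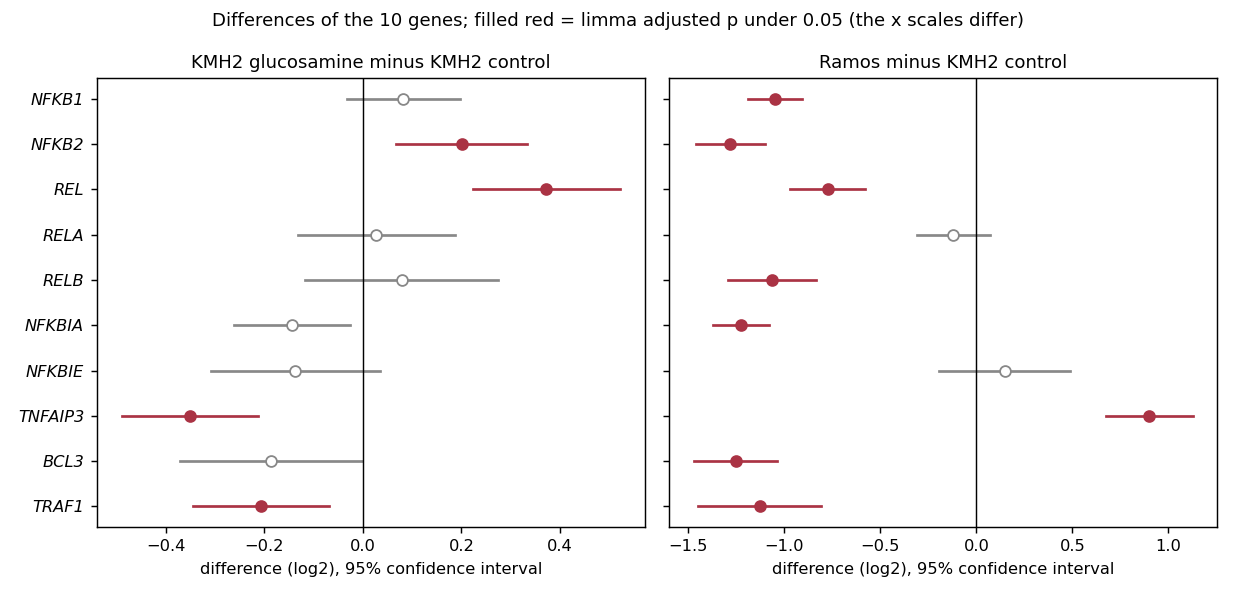
Differences in log2 signal of the 10 members, glucosamine minus control in KMH2 (left) and Ramos minus KMH2 control (right), with 95% confidence intervals from limma. Filled red points have an adjusted p under 0.05, and the x scales of the panels differ. On the left REL (0.37) and TNFAIP3 (-0.35) lie farthest from 0, and on the right 7 members lie between -1.28 and -0.78 while TNFAIP3 lies at 0.90.

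Against KMH2 glucosamine, Ramos again differed in 8 members (background 43.5%), with TNFAIP3 higher and NFKB1, NFKB2, REL, RELB, NFKBIA, BCL3 and TRAF1 lower. The difference was 1.48 for NFKB2 and 0.92 for TRAF1 at the ends of the range of the lower ones. The arrays did not overlap for 9 members, against 60.2% of all probe sets. In the order of group levels, the neighbours that did not pass a test were the KMH2 groups for NFKB1, RELB, NFKBIA and BCL3, and all groups for RELA and NFKBIE.

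Most upstream signalling genes did not pass the test after glucosamine. Of 23 kinases, adaptors and ubiquitin ligases measured of 29 listed, 3 rose, 4 fell and 16 did not pass, which is 30.4% against 25.8% of all probe sets. Their median difference was 0.029. RNF31, the catalytic subunit of the ligase of linear ubiquitin chains, fell by 0.36 ± 0.06 (SE, adjusted p = 0.00264), and TRADD, an adaptor of TNF receptor 1, fell by 0.39 ± 0.07 (SE, adjusted p = 0.00357). The ubiquitin ligase gene TRAF6 rose by 0.24 ± 0.06 (SE, adjusted p = 0.0157), a call lost without control replicate 3 (0.0596) or glucosamine replicate 2 (0.0505). The remaining called genes were chosen after their values were seen: IKBKE (-0.40) and MYD88 (-0.20) fell, and TAB3 (0.27) and IKBKG (0.25), the regulatory subunit NEMO of the kinase complex, rose.

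Several calls in this list were lost when 1 array was left out. The count of 7 was 3 without control replicate 1, 2 or 3 and 4 without glucosamine replicate 2. IKBKE lost its call without any 1 of the controls (adjusted p from 0.0502 to 0.0719). MYD88 kept it only without glucosamine replicate 2 (0.0507 to 0.112 otherwise), TAB3 only without glucosamine replicate 1 (0.0918 to 0.127 otherwise) and IKBKG only without glucosamine replicate 3 (0.0750 to 0.144 otherwise). The genes of the catalytic kinases did not pass, with CHUK at -0.013 (adjusted p = 0.901) and IKBKB at 0.20 (adjusted p = 0.0772), both chosen after their values were seen.

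Other inhibitors and regulators of the pathway numbered 21, of which 4 rose, 1 fell and 16 did not pass. The called share was 23.8%, against 25.8% of all probe sets, with a median difference of 0.078. TAX1BP1, a ubiquitin-binding partner of A20, rose by 0.43 ± 0.07 (SE, adjusted p = 0.00378), TANK, a TRAF-binding adaptor, by 0.26 (adjusted p = 0.00786), and the deubiquitinase gene OTUD7B by 0.37 (adjusted p = 0.0158). OTUD7B was not called without control replicate 3 (0.0636), and TANK was not called when all 8 arrays shared the spread (0.208). Chosen after their values were seen, RNF11, another partner of A20, also rose (0.25) and NLRC5 was the one that fell (-0.31). RNF11 lost its call without any 1 array other than glucosamine replicate 2 (0.0589 to 0.139), and NLRC5 lost its call without control replicate 2 (0.0611) or glucosamine replicate 3 (0.0635). The count of 5 was 3 without control replicate 2 or 3 or glucosamine replicate 3.

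Of 12 receptors that feed the pathway 2 rose, 2 fell and 8 did not pass. The called share was 33.3%, against 25.8% of all probe sets, and the median difference was 0.018. TNFRSF8, the gene of CD30 and the defining marker of Hodgkin cells, went from 8.74 ± 0.10 to 8.01 ± 0.07 (SD, n = 3 per group), a fall of 0.73 (-0.73, adjusted p = 0.000232). The interleukin-1 receptor gene IL1R1, whose signal lay below the array medians, fell by 0.56 ± 0.09 (SE, adjusted p = 0.00207), whereas TNFRSF1A, the gene of TNF receptor 1, rose by 0.51 ± 0.07 (SE, adjusted p = 0.00116). TLR7, an endosomal receptor for RNA that was chosen after its value was seen, rose by 0.66 (adjusted p = 0.0268), a call lost without control replicate 1 or 2 or glucosamine replicate 2 or 3 (0.0517 to 0.0941).

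Of the target genes described in Hodgkin and activated B cells, 34 of 35 listed were measured, and 4 rose, 8 fell and 22 did not pass. The called share was 35.3%, against 25.8% of all probe sets, and the median difference was -0.040. FAS, a death receptor, rose by 0.63 ± 0.05 (SE, adjusted p = 0.000134). TNFAIP8 fell by 0.56 ± 0.05 (SE, adjusted p = 0.000234) and CCL17, a chemokine of Hodgkin cells, fell by 0.47 ± 0.06 (SE, adjusted p = 0.000708). Chosen after their values were seen, VCAM1 (0.53), TNFAIP2 (0.59) and BCL2L1 (0.30), the survival gene of BCL-xL, were the other three that rose, and CXCL10 (-0.45), CCND2 (-0.37) and IRF4 (-0.34) were among those that fell. In the fit in which all 8 arrays shared the spread, CXCL10 (0.193), CCND2 (0.0776) and IRF4 (0.0502) were not called.

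**Figure D4:**
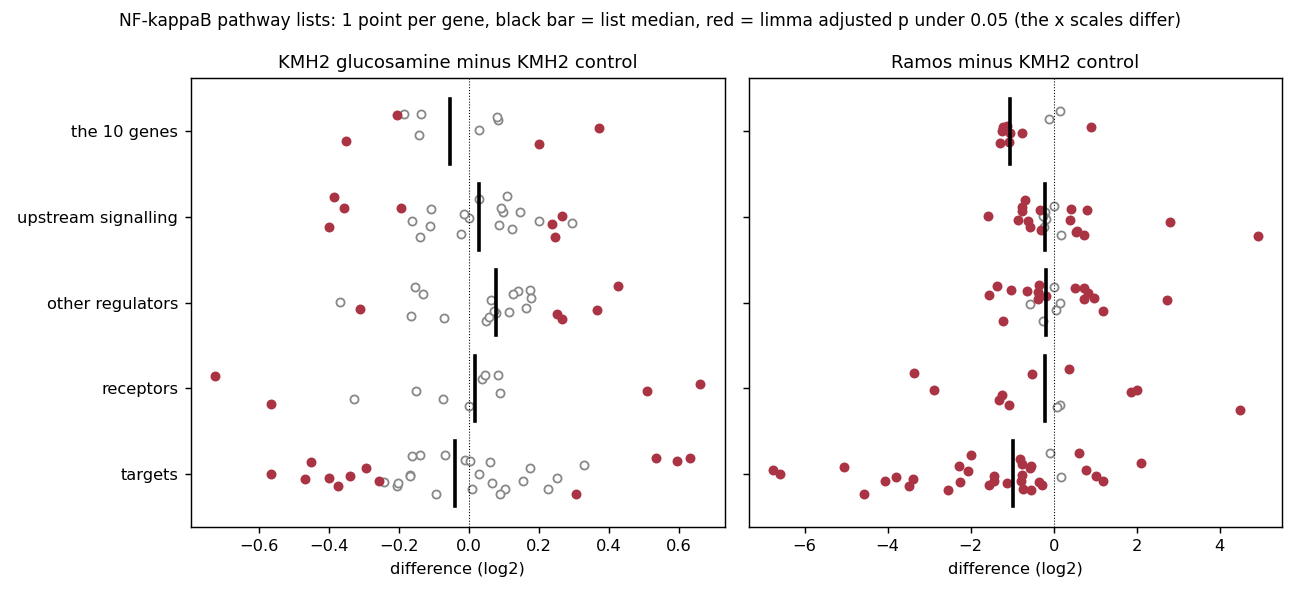
Differences in log2 signal for the 10 members and for the 4 lists of pathway genes, glucosamine minus control in KMH2 (left) and Ramos minus KMH2 control (right). Each point is a gene, red where the adjusted p is under 0.05, black bars are list medians, and the x scales differ. On the left the medians lie between -0.055 and 0.078, and on the right those of the members (-1.06) and the targets (-0.97) lie lowest.

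Most targets were lower in Ramos. Of the genes named below, PRKCB, TRAF5, CYLD and TLR10 in KMH2 and CCND2, STAT5A, VCAM1, OTUD7B and TLR7 in Ramos had group means below the array medians. No background level comes with the deposited values, so whether these dim signals are above background is unknown and their differences are differences of signal. Of 34 targets 27 were lower and 5 higher in Ramos than in KMH2 control, and 2 did not pass (94.1% called, against 43.8% of all probe sets, with a median of -0.97 against 0.063). CCND2, the gene of cyclin D2, was 11.47 ± 0.06 in KMH2 control (SD, n = 3) and 4.71 ± 0.34 in Ramos (SD, n = 2), a difference of -6.76 (adjusted p = 3.29e-09). IRF4, a transcription factor of activated B cells, was 5.05 lower (adjusted p = 4.55e-09) and STAT5A, a cytokine-activated transcription factor, 3.80 lower (adjusted p = 4.49e-09). The 5 that were higher in Ramos, chosen after their values were seen, were CCL22 (2.10), LTB (1.18), SOD2 (1.02), BCL2L1 (0.79) and IRF1 (0.61). IRF1 was not called with array weights (0.0819). CCL17, CCL22, IRF4 and JUNB of the target list and TNFRSF8 of the receptor list also belong to the Hodgkin marker list. The targets were listed as described in Hodgkin and activated B cells, with earlier results of these data known. Lower levels in Ramos could follow from this choice, so the counts of targets in both Ramos comparisons are no independent test. Against KMH2 glucosamine 24 targets were lower and 5 higher (85.3% called, against 43.5% of all probe sets). VCAM1 was 3.93 lower (adjusted p = 4.61e-09), CCND2 6.39 lower and STAT5A 3.63 lower.

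Signalling genes, other regulators and receptors went both ways between the lines. Among 23 signalling genes 8 were higher and 9 lower in Ramos (73.9% called, against 43.8% of all probe sets). Their median difference was -0.22. PRKCB, the protein kinase C of B-cell receptor signalling, was 4.39 ± 0.02 in KMH2 control (SD, n = 3) and 9.32 ± 0.35 in Ramos (SD, n = 2), 4.92 higher (adjusted p = 1.81e-08). The adaptor gene TRAF5 was 2.80 higher (adjusted p = 2.55e-06), and TRAF3, which restrains the alternative pathway, was 0.87 lower (adjusted p = 9.75e-06). Against KMH2 glucosamine 7 signalling genes were higher and 9 lower (69.6% called, against 43.5% of all probe sets). PRKCB differed by 4.82, TRAF5 by 2.77 and TRAF3 by 0.76, in the directions above.

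Among the 21 other regulators 7 were higher and 9 lower in Ramos than in KMH2 control (76.2% called, against 43.8% of all probe sets). Their median difference was -0.19. CYLD, a deubiquitinase that dampens the pathway, was 5.43 ± 0.12 in KMH2 control (SD, n = 3) and 8.17 ± 0.27 in Ramos (SD, n = 2), 2.73 higher (adjusted p = 5.64e-07). N4BP1 was 1.18 higher (adjusted p = 8.12e-06) and OTUD7B 1.55 lower (adjusted p = 1.63e-05). Against KMH2 glucosamine 7 were higher and 9 lower (76.2% called, against 43.5% of all probe sets). CYLD was 2.56 higher, N4BP1 1.32 higher and OTUD7B 1.92 lower.

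Of the 12 receptors 4 were higher and 6 lower in Ramos than in KMH2 control (83.3% called, against 43.8% of all probe sets). Their median difference was -0.22. TLR10 was 4.49 higher (adjusted p = 1.58e-07), TNFRSF8 was 2.87 lower (adjusted p = 5.76e-07) and TLR7 was 3.36 lower (adjusted p = 3.14e-06). The other three that were higher, chosen after their values were seen, were TLR9 (2.00), an endosomal receptor for DNA, TNFRSF13C (1.85), the receptor of BAFF, and TNFRSF13B (0.37). Against KMH2 glucosamine 4 were higher and 5 lower (75% called, against 43.5% of all probe sets). TLR10 was 4.64 higher, TLR7 4.02 lower and TNFRSF1A 1.84 lower.

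Genes with the most similar pattern were found for the 8 members that spanned at least 1 on the log2 scale over the 8 arrays. Likeness was the root mean square difference between profiles after each gene's mean was subtracted, over 17957 other genes. NFKBIA had the closest neighbour, CTR9 (0.028), followed by NFKB2 with KCNH2 (0.039), NFKB1 with SF3B2 (0.042) and TRAF1 with MAGEF1 (0.043). REL was nearest to ARMCX3 (0.060), BCL3 to CES2 (0.063), TNFAIP3 to RHOBTB2 (0.066) and RELB to HOXC10 (0.070). No member was the nearest neighbour of another. A close neighbour may share only the step between the cell lines. Ramos and KMH2 control arrays did not overlap for 64.1% of all probe sets, so likeness here is not evidence of shared regulation.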

How the data were processed

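Total RNA was hybridised to Affymetrix HuGene-1_1-st-v1 arrays, 1 sample on each, per the labels' protocols. The authors deposited log2 signals for 33297 probe sets, a unit read from the values (1.94 to 13.21). The sources used here do not give how probes were summarized, background-corrected and normalized. Any background left in a signal makes folds of dim genes too small, and the few replicates limit precision.

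The 19181 probe sets to which the platform annotation of 2016 gives a single symbol were tested, and the brightest stood for a gene. Models were fitted with limma 3.58.1 (R 4.3.3): lmFit, then eBayes, with two-sided p-values adjusted by Benjamini-Hochberg and a threshold of 0.05. The code was tested on simulated data. Glucosamine was tested over the 6 KMH2 arrays, and Ramos over all 8 arrays in 3 groups that shared the spread. Ramos had a larger median SD over probe sets (0.11) than KMH2 control (0.067) or KMH2 glucosamine (0.080). The shared spread may thus be too small for Ramos. With only Ramos and KMH2 control in the fit, limma's adjusted p for the 8 called members ran from 8.69e-05 (NFKBIA) to 0.00352 (TRAF1). Intervals are 95% confidence intervals. All members were named. From each list the 3 called genes with the smallest p were named, and any other name is marked as chosen later. Listed genes that lacked a probe set of a single symbol were not used here. Members and lists were chosen with earlier results of these data known. Promoters were searched in Python 3.11.15.

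The KMH2 groups share replicate numbers. Deviations of same-numbered arrays from their group means correlated with r = 0.46, 0.23 and 0.23 over probe sets, and those of arrays with different numbers with r from -0.37 to 0.25. Only number 1 stood apart: control 2 correlated more with glucosamine 3 (0.25) than with glucosamine 2. These correlations do not settle whether the numbers pair the samples. The main test of glucosamine was unpaired, without a replicate block. Alternatives were the replicate block, normalization, filters, array weights, a variance trend, a minimum fold and leaving out arrays.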

Additional observations from a re-analysis of the deposited data

How the results depend on the processing

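Between the cell lines the count of called members was 8 in all alternatives for Ramos against KMH2 control and against KMH2 glucosamine, except 9 without Ramos replicate 2, where NFKBIE passed in a fit that assumes the lone Ramos array to vary like the KMH2 arrays. The fit with a replicate block called 4 members after glucosamine and 8 in either Ramos comparison, and it changed no member's call. After glucosamine the count of 4 was 2 when all 8 arrays shared the spread and 2 with every probe set tested, where NFKB2 and TRAF1 lost their calls. With limma's treat and a required fold of 1.2 it was 0, where 6 members had an unadjusted p under 0.05 in the ordinary limma test and 0 in treat. Leaving out 1 array at a time gave 2 to 5 members after glucosamine and 8 to 9 in each Ramos comparison. REL and TNFAIP3 were called in 16 of 17 alternatives each, all but treat. Signs turned for differences near 0. After glucosamine RELA was -0.025 without control replicate 1 and -0.0071 without glucosamine replicate 3, in a range up to 0.079 with 1 array left out. RELB was -0.017 without glucosamine replicate 1, in a range up to 0.14, and -0.038 without both replicate 1 arrays. NFKBIE in Ramos against control was -0.12 without Ramos replicate 1 and 0.41 without Ramos replicate 2. Over the alternatives the called signalling genes after glucosamine numbered 0 to 11, other regulators 0 to 7, receptors 1 to 5 and targets 3 to 18, and in Ramos against KMH2 control 12 to 19, 10 to 16, 7 to 10 and 26 to 32. Of the pathway-list genes named as called after glucosamine, FAS, TNFAIP8, TNFRSF8 and VCAM1 kept the call in all 17 alternatives. All others named lost it in treat. In the fit over all 8 arrays TRAF6, OTUD7B, TLR7, IKBKE, MYD88, TAB3, IKBKG, RNF11 and NLRC5 also lost their calls, besides those given above. The cause of these changes was not tested. Groups this small were not screened for outlying arrays.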
